A study of Mus musculus with 8 samples.

Results

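The miR-181 family was examined by microRNA sequencing (miRNA-seq) in cultured articular chondrocytes of the mouse, which build and maintain joint cartilage. The family was taken as 9 mature miRNAs chosen by name, and all 9 were present among the 1966 names of the deposited count table. The cells were isolated from femoral head cartilage of wild-type mice aged 3 weeks and cultured with vehicle (n = 4 libraries) or with the proinflammatory cytokine IL-1β at 1 ng/ml (n = 4 libraries), in both cases for 24 h and in medium with fetal bovine serum. No genetic change was stated for any library. The comparison of the groups asked which miRNAs respond to inflammation in cartilage cells. The labels number the libraries but do not say whether they came from separate mice or cultures, so that the tests measure the spread between these libraries.

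Each miR-181 gene is transcribed as part of a longer RNA that folds into a hairpin, and the hairpin is cut into a 5p and a 3p strand. One strand, usually the 5p strand in this family, is loaded as the guide into an Argonaute protein and pairs through its seed (bases 2 to 8) with messenger RNAs, which are then repressed. The family is best known for tuning antigen receptor signaling in lymphocytes and for restraining NF-κB signaling in vascular cells, and miR-181a-5p has been studied in osteoarthritic cartilage.

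The mature sequences (named with the prefix mmu- for mouse, left out further on) were taken from RefSeq (GRCm38.p6) and are shown because they set out which members share a seed and which can be told apart by their reads. The seed is in capitals, and all sequences run from 5′ to 3′.
mmu-miR-181a-5p: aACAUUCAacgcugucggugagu
mmu-miR-181b-5p: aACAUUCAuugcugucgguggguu
mmu-miR-181c-5p: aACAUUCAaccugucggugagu
mmu-miR-181d-5p: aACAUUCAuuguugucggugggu
mmu-miR-181a-1-3p: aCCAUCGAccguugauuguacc
mmu-miR-181a-2-3p: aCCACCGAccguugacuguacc
mmu-miR-181c-3p: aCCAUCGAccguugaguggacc
mmu-miR-181b-1-3p: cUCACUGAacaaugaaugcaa
mmu-miR-181b-2-3p: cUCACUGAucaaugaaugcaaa

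The 4 members of the 5p arm carried one and the same seed. No other mature miRNA in the RefSeq table, which held 1679 names, shared it. Outside the seed they were close relatives. Counted from 1 at the 5′ end, miR-181b-5p differed from miR-181a-5p by A9U, C10U and A21G and by 1 added base at its 3′ end. miR-181d-5p differed from miR-181b-5p by C12U and lacked that last base. miR-181c-5p was miR-181a-5p without the G at position 11.

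The 3p arms fell into 3 seeds. miR-181a-1-3p and miR-181c-3p had one seed in common, and miR-181b-1-3p and miR-181b-2-3p had another. miR-181a-2-3p stood alone, since 1 of its 2 differences from miR-181a-1-3p (U5C and U16C) lies within the seed.

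The family is encoded at 3 places in the mouse genome (GRCm38). On chromosome 1, plus strand, the hairpins of Mir181a-1 (137966455 to 137966541) and Mir181b-1 (137966639 to 137966718) lie 97 bases apart. Both overlap exons of the long non-coding RNA gene A430106G13Rik and an intron of Gm4258 on the same strand, and an intron of Gm26936 on the other, according to GENCODE M21. On chromosome 2, plus strand, Mir181a-2 (38852735 to 38852810) and Mir181b-2 (38853830 to 38853918) are separated by 1019 bases and lie opposite an intron of Nr6a1, which encodes an orphan nuclear receptor and runs on the other strand. Mir181b-2 also lies opposite an exon of Gm44144, a transcript model still to be tested experimentally. On chromosome 8, minus strand, Mir181d (84178716 to 84178787) and Mir181c (84178873 to 84178961) lie in an intron of Nanos3, a gene for a germ cell RNA-binding protein, on its own strand.

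The hairpins of the miR-181a genes are given to show that their 5p strands are identical whereas their 3p strands are not. The mature 5p and 3p strands are in capitals.
Mir181a-1: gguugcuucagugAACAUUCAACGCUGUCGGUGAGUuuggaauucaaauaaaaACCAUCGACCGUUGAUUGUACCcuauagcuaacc
Mir181a-2: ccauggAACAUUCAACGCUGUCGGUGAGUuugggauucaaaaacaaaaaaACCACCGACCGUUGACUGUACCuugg

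A read of miR-181a-5p or miR-181b-5p can thus come from chromosome 1 or chromosome 2, and only the 3p arms separate the sources. The count table listed miR-181a-5p with a length of 23 nt and miR-181b-5p with 24 nt, which is the length of a single copy. Of the 53 names in the table with at least 2 loci in RefSeq, 31 were listed in this way and 22 with a longer, summed length. The treatment of reads that map to several loci was not stated, so the 5p counts of these 2 members cannot be assigned to a locus.

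Library totals ranged from 616475 to 1568367 counts. Levels are given as normalized CPM, that is, counts per 1000000 counts of the library after scaling of that total by TMM, a correction for composition with factors of 0.932 to 1.04 here. An observed 0 allows up to 3 counts, or 1.91 to 4.87 CPM depending on the library. Of the 9 members, 7 passed the filter of over 1 CPM in at least 4 of the 8 libraries and were among the 564 miRNAs tested. IL-1β replicate 4 stood apart from its group in these data. It held the highest value of the 8 libraries for 126 of the 564 tested miRNAs (22.3%), whereas each of the other 7 libraries did so for 57 to 81.

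Mean vehicle levels of the members spanned from 89436 normalized CPM for miR-181a-5p to 0 for miR-181b-2-3p. The mature forms are of 21 to 24 nt, so no scaling by length was applied, although small RNA library chemistry favors some sequences over others. miR-181a-5p had rank 4 among all miRNAs in each of the 8 libraries. miR-181b-5p ranked between 30 and 36, miR-181c-5p between 79 and 84, and miR-181d-5p between 236 and 283. Neighbors in the order of levels were separate in both groups, except miR-181d-5p and miR-181c-3p, whose vehicle values overlapped, and the 3p arms of miR-181b, which had 3 counts in all.

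**Figure D1:**
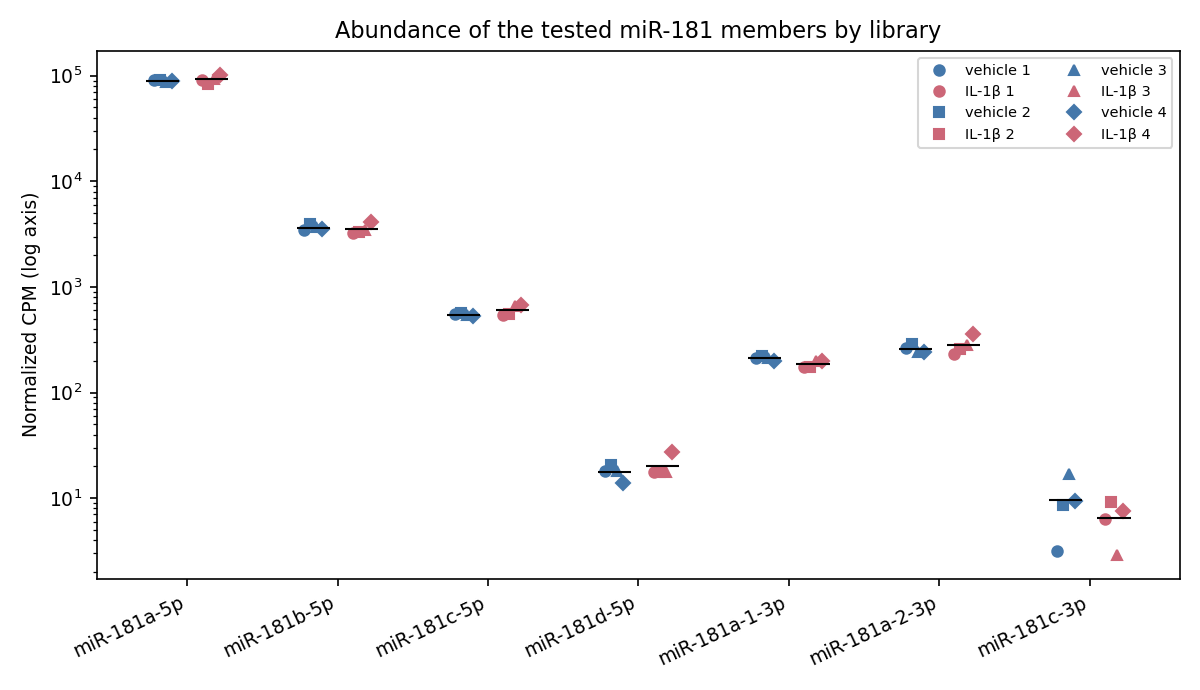
Normalized CPM (log axis) of the 7 tested miR-181 members, with 1 point per library (vehicle in blue, IL-1β in red, the marker shape giving the replicate) and a black line at the mean of each group of 4. The levels of the members differ far more than those of the treatments, from vehicle means of 89436 for miR-181a-5p to 9.52 for miR-181c-3p.

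With IL-1β the 2 most abundant guide strands, miR-181a-5p and miR-181b-5p, were measured close to their vehicle levels. None of the 7 tested members was called, where a call required a Benjamini-Hochberg adjusted p under 0.05 and an absolute log2 fold change over 0.3 in the quasi-likelihood test of edgeR. The same rule called 11 of the 564 miRNAs tested, or 1.95%, of which 8 were higher (1.42%) and 3 lower (0.532%) with IL-1β. At an unadjusted p under 0.05 the count was 0 of 7 members, against 63 of 564 miRNAs (11.2%), and DESeq2 also called none of the 7, although it assigned no adjusted p to miR-181c-3p. The median absolute log2 fold change was 0.14 over the 7 members and 0.22 over all miRNAs tested, and 3 of the 7 had a negative value, as did 279 of the 564.

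mmu-miR-181a-5p, the dominant guide strand, was measured at 91284, 90753, 86334 and 89373 normalized CPM in vehicle replicates 1 to 4. In IL-1β replicates 1 to 4 it was at 90730, 83638, 92115 and 102058. The groups overlapped, with both the lowest and the highest library among those given IL-1β. The means were 89436 ± 2219 and 92135 ± 7586 (SD, n = 4). In edgeR this was a log2 fold change of 0.04 with an SE of 0.0808 and an adjusted p of 0.886. The 95% interval of the change ran from -0.12 to 0.21, within the 0.3 in either direction that a call required. Without IL-1β replicate 4 the log2 fold change was -0.0079 (SE 0.0480).

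mmu-miR-181b-5p, which has the same seed and is cut from the neighboring hairpins, was about 4% as abundant. Its values were 3457, 3972, 3672 and 3503 normalized CPM with vehicle and 3231, 3300, 3462 and 4107 with IL-1β, replicates 1 to 4. Of the 4 IL-1β libraries, 2 lay below every vehicle library and IL-1β replicate 4 lay above all of them. The means were 3651 ± 233 and 3525 ± 400 (SD, n = 4), and the log2 fold change was -0.05 (SE 0.0890, 95% interval -0.23 to 0.13, edgeR adjusted p = 0.871). With each library left out in turn the value ranged from -0.13 to -0.0080. The lowest came without IL-1β replicate 4, with an unadjusted p of 0.0442 and an adjusted p of 0.339 in edgeR. The highest came without vehicle replicate 2 (unadjusted p = 0.937 in edgeR), and it was -0.015 without IL-1β replicate 1, -0.10 without vehicle replicate 4 and -0.081 without vehicle replicate 1.

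mmu-miR-181c-5p, the guide strand of the chromosome 8 pair, gave 551, 572, 539 and 527 normalized CPM with vehicle and 542, 557, 658 and 677 with IL-1β, replicates 1 to 4. IL-1β replicates 3 and 4 exceeded every vehicle library, and the other 2 lay within the vehicle range. From 547 ± 19.3 to 608 ± 68.6 (SD, n = 4), the log2 fold change was 0.15 (SE 0.0923, 95% interval -0.04 to 0.34, edgeR adjusted p = 0.650). It was 0.093 without IL-1β replicate 4 and 0.095 without IL-1β replicate 3, and with the other libraries left out in turn it ranged from 0.10 to 0.20.

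mmu-miR-181d-5p, from the other hairpin of that pair, was scarce, with 9 to 31 counts per library. It was at 18.0, 20.7, 18.1 and 14.0 normalized CPM with vehicle and at 17.6, 17.7, 17.5 and 27.6 with IL-1β, replicates 1 to 4. IL-1β replicate 4 was the highest library, and the other 3 were nearly equal. The log2 fold change of 0.14 (SE 0.255) had a 95% interval of -0.39 to 0.66 and an edgeR adjusted p of 0.879, so that a change of 0.3 in either direction lay within the interval. Without IL-1β replicate 4 the log2 fold change was -0.05.

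**Figure D2:**
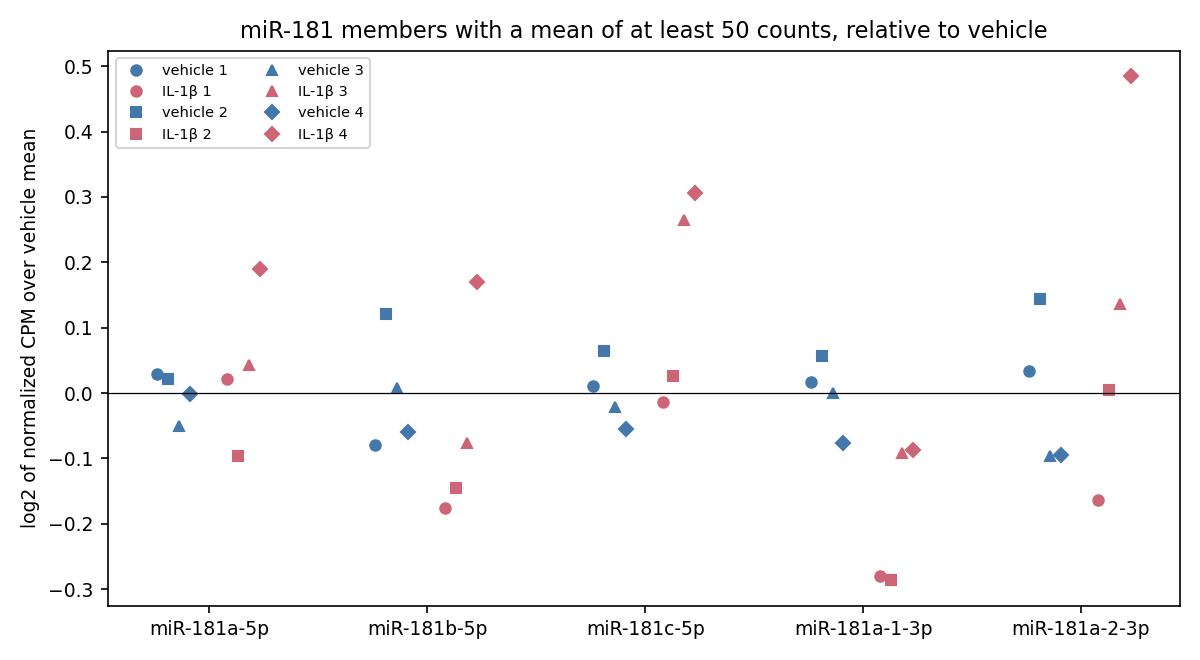
Log2 of normalized CPM over the vehicle mean for the 5 miR-181 members with a mean of at least 50 counts, with 1 point per library (vehicle in blue, IL-1β in red, marker shape for replicate). IL-1β replicate 4 is the highest library for all but miR-181a-1-3p, reaching 0.49 for miR-181a-2-3p, and all 4 IL-1β libraries of miR-181a-1-3p lie below its 4 vehicle libraries.

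Over all 8 libraries the coefficient of variation was larger with IL-1β for 6 of the 7 tested members, all but miR-181c-3p, and for 351 of the 563 miRNAs with a value in both groups (62.3%). Without IL-1β replicate 4 it was larger for 4 of the 7 and for 50.8% of miRNAs. These counts were not tested. For miR-181a-5p the coefficient of variation was 2.48% with vehicle and 8.23% with IL-1β, where counting error alone would give 0.309% and 0.365%. For miR-181c-5p it was 3.53% and 11.3%, against 3.94% and 4.48% from counting. Among the 3p arms miR-181a-1-3p gave 3.80% and 7.75%, both below the 6.32% and 8.10% from counting. For miR-181a-2-3p the values were 8.14% and 19.8%, against 5.73% and 6.55% from counting. For miR-181c-3p they were 59.1% and 41.0%, against 28.6% and 41.7%. IL-1β replicate 4 was the highest of the 8 libraries for 5 of the 7 tested members, namely the 4 guide strands and miR-181a-2-3p. Without this library the coefficient of variation with IL-1β was 5.12% for miR-181a-5p and 3.55% for miR-181b-5p, then below the 6.39% of the vehicle libraries. It was 10.7% for miR-181c-5p. For miR-181d-5p the 15.5% with vehicle and 24.8% with IL-1β were close to the 21.6% and 24.6% that counting error alone would give. Without IL-1β replicate 4 the latter group fell to 0.469%. The libraries left held 11, 21 and 12 counts. Counting error at such counts is far larger than 0.469%, so this value cannot be read as a lower spread than with vehicle.

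The 5p members were next summed as 1 seed family. They made up 9.66%, 9.43%, 9.24% and 9.46% of all counts with vehicle and 9.58%, 9.06%, 9.48% and 9.96% with IL-1β, replicates 1 to 4. The ranges overlapped, and the means were 9.45% ± 0.172 and 9.52% ± 0.368 (SD, n = 4, two-sided p = 0.800 by exact permutation). For the 3p members the sums were 0.0484% ± 0.00213 and 0.0471% ± 0.00472 (SD, n = 4, p = 0.600 by exact permutation). Adjusted over these 2 tests, both p-values were 0.800.

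Within the seed family miR-181a-5p made up 95.5% ± 0.269 of the 5p counts in vehicle libraries and 95.7% ± 0.216 in IL-1β libraries (SD, n = 4). miR-181b-5p made up 3.90% ± 0.253 and 3.66% ± 0.190, miR-181c-5p 0.584% ± 0.0166 and 0.632% ± 0.0449, and miR-181d-5p 0.0189% ± 0.00284 and 0.0207% ± 0.00350 (SD, n = 4).

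Ratios of counts within a library do not depend on scaling between libraries and were tested for 5 pairs with enough counts, by exact permutation tests with the p-values adjusted over the 5. The ratio of miR-181b-5p to miR-181a-5p was 4.08% ± 0.277 in vehicle libraries and 3.82% ± 0.207 in IL-1β libraries (SD, n = 4, p = 0.200 by exact permutation, adjusted 0.333). The ratio of miR-181c-5p to miR-181a-5p was 0.612% ± 0.0189 and 0.660% ± 0.0477 (SD, n = 4, p = 0.114 by exact permutation, adjusted 0.286). For miR-181d-5p over miR-181a-5p the log2 ratio differed by 0.13 (exact permutation p = 0.486, adjusted 0.543), by 0.027 without IL-1β replicate 4 and by 0.037 without vehicle replicate 4. The groups overlapped in each of these 3 ratios.

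**Figure D3:**
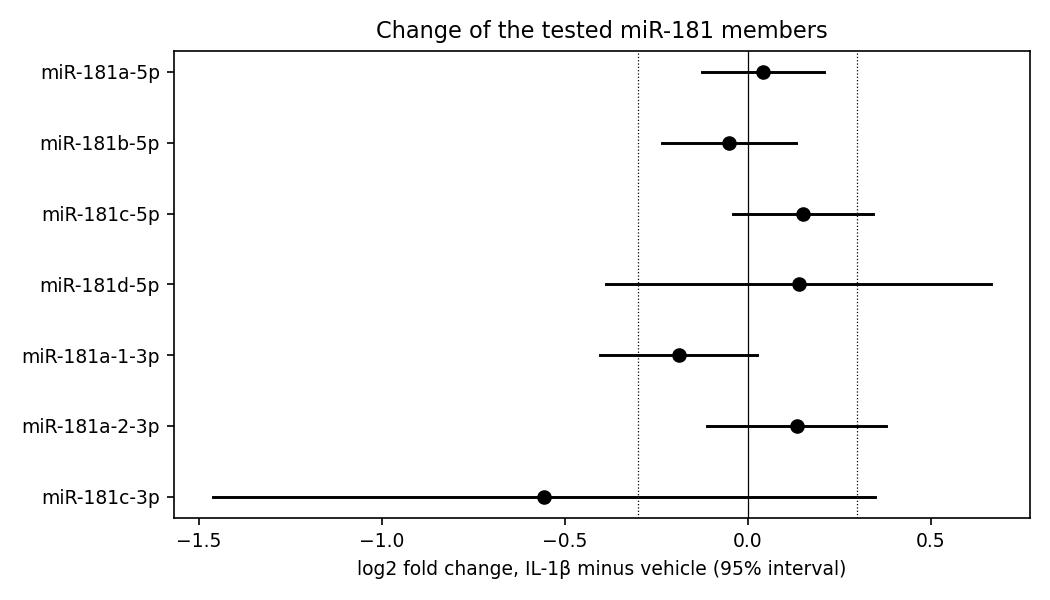
Log2 fold change (IL-1β minus vehicle) of the 7 tested miR-181 members from edgeR, with 95% intervals as bars and dotted lines at the 0.3 required for a call in either direction. All 7 intervals include 0, and those of miR-181a-5p and miR-181b-5p lie wholly between the dotted lines.

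The 3p arms, usually the discarded passenger strands, were examined next because they report on single hairpins. mmu-miR-181a-1-3p, from chromosome 1, was at 214, 220, 212 and 201 normalized CPM with vehicle and at 174, 174, 199 and 199 with IL-1β, replicates 1 to 4. Every IL-1β library was lower than every vehicle library, although the gap between the nearest libraries, at 201 and 199, was small. Such separation in either direction was seen for 1 of the 7 members and for 43 of the 564 miRNAs tested (7.62%). The means were 212 ± 8.05 and 186 ± 14.4 (SD, n = 4), and the log2 fold change of -0.19 (SE 0.103, 95% interval -0.40 to 0.02) was not called, with an unadjusted p of 0.0797 and an adjusted p of 0.556 in edgeR. Its adjusted p in edgeR or DESeq2 lay between 0.291 and 0.731 in all 15 alternatives. The unadjusted p was under 0.05 in 5 of these, namely with scaling to library totals, with a filter on mean counts, and without vehicle replicate 4, IL-1β replicate 3 or IL-1β replicate 4, where it was lowest at 0.0297 in edgeR.

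mmu-miR-181a-2-3p, the matching arm from chromosome 2, was at 264, 285, 241 and 241 normalized CPM with vehicle and at 230, 259, 283 and 361 with IL-1β, replicates 1 to 4. The IL-1β libraries included both the lowest and the highest value. The means were 258 ± 20.98 and 283 ± 56.1 (SD, n = 4). In edgeR the log2 fold change was 0.13, with an SE of 0.119, a 95% interval of -0.11 to 0.38 and an adjusted p of 0.753. Without IL-1β replicate 4 the log2 fold change was -0.0034, whereas that of miR-181a-1-3p was -0.23 (edgeR adjusted p = 0.295).

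Set against each other, the arms gave the share of the chromosome 1 arm in all miR-181a 3p counts. This share was 44.8%, 43.6%, 46.8% and 45.4% with vehicle and 43.1%, 40.2%, 41.2% and 35.6% with IL-1β, replicates 1 to 4. The groups did not overlap, but the 95% Wilson intervals of single libraries, which cover counting error only, were wide, at 40.1% to 47.1% for vehicle replicate 2 and 37.1% to 49.2% for IL-1β replicate 1, the nearest libraries of the groups. The mean share was 45.1% ± 1.32 in the former and 40.01% ± 3.19 in the latter group (SD, n = 4). As a ratio of miR-181a-1-3p to miR-181a-2-3p the difference was -0.30 on the log2 scale, with an exact permutation p of 0.0286, the smallest that 4 against 4 libraries allow. Adjusted over the 5 ratios the permutation p was 0.143, which is also the lowest that 1 ratio alone can reach, so the difference did not pass the correction. Without IL-1β replicate 4 it was -0.21, with an exact permutation p of 0.0571, the smallest possible with 7 libraries.

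**Figure D4:**
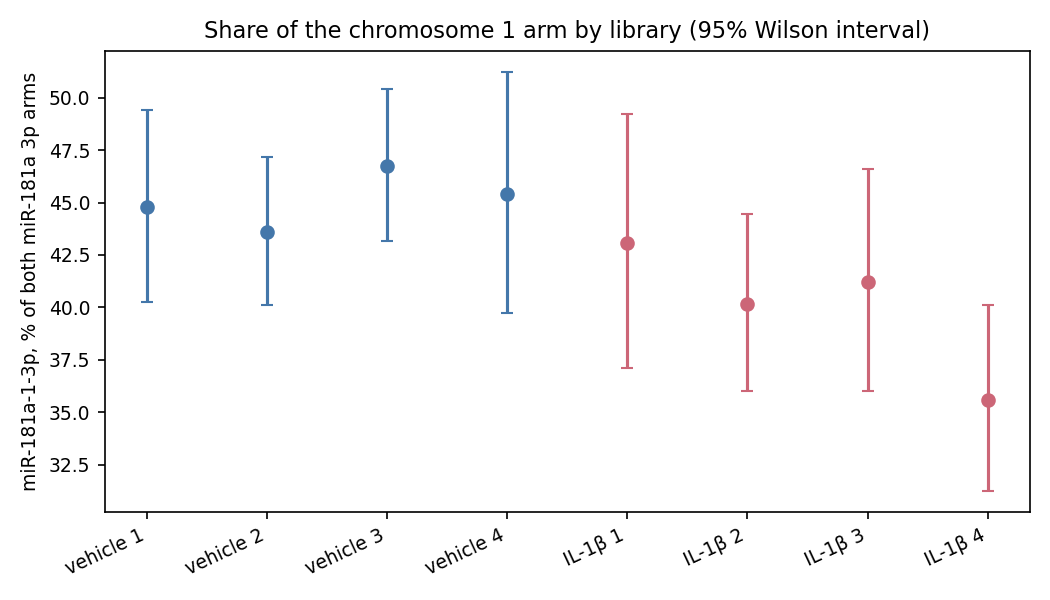
Share of miR-181a-1-3p in the counts of both miR-181a 3p arms in each library, in percent, with 95% Wilson intervals for counting error (vehicle in blue, IL-1β in red). The 4 vehicle libraries lie between 43.6% and 46.8% and the 4 IL-1β libraries between 35.6% and 43.1%, the lowest being replicate 4, and neighboring intervals overlap. The vertical axis does not start at 0.

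Both 3p arms of miR-181a together amounted to 0.525% ± 0.0252 of the miR-181a-5p counts in vehicle libraries and 0.509% ± 0.0441 in IL-1β libraries (SD, n = 4, p = 0.543 by exact permutation, also after adjustment). The 5p strand thus outnumbered the 3p strands by 191 to 1 over the 8 libraries. For miR-181c the same ratio was 63.4 to 1.

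For miR-181b the 3p arms were almost absent, with 28919 counts of miR-181b-5p over the 8 libraries against 2 of miR-181b-1-3p and 1 of miR-181b-2-3p. The 2 counts came from vehicle replicates 2 and 3 and the single count from IL-1β replicate 4. Pooled over all libraries the levels were 0.251 CPM for miR-181b-1-3p (exact 95% binomial interval 0.0304 to 0.908, counting error only) and 0.126 CPM for miR-181b-2-3p (0.00318 to 0.700). These 2 members did not pass the filter, and no difference between the groups was detectable at this depth. The miR-181b arms therefore gave no view of which locus supplied miR-181b-5p.

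mmu-miR-181c-3p had 2 to 27 counts per library and was at 3.18, 8.68, 16.9 and 9.35 normalized CPM with vehicle and at 6.40, 9.27, 2.92 and 7.52 with IL-1β, replicates 1 to 4. The groups overlapped in part. Vehicle replicates 3 and 4 lay above every IL-1β library, the highest being replicate 3, and IL-1β replicate 3 lay below every vehicle library. The log2 fold change was -0.56 (SE 0.438), with a 95% interval of -1.46 to 0.35 and an edgeR adjusted p of 0.753. With single libraries left out it ranged from -0.87 without IL-1β replicate 2 to -0.037 without vehicle replicate 3, and it was -0.36 without IL-1β replicate 3.

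**Figure D5:**
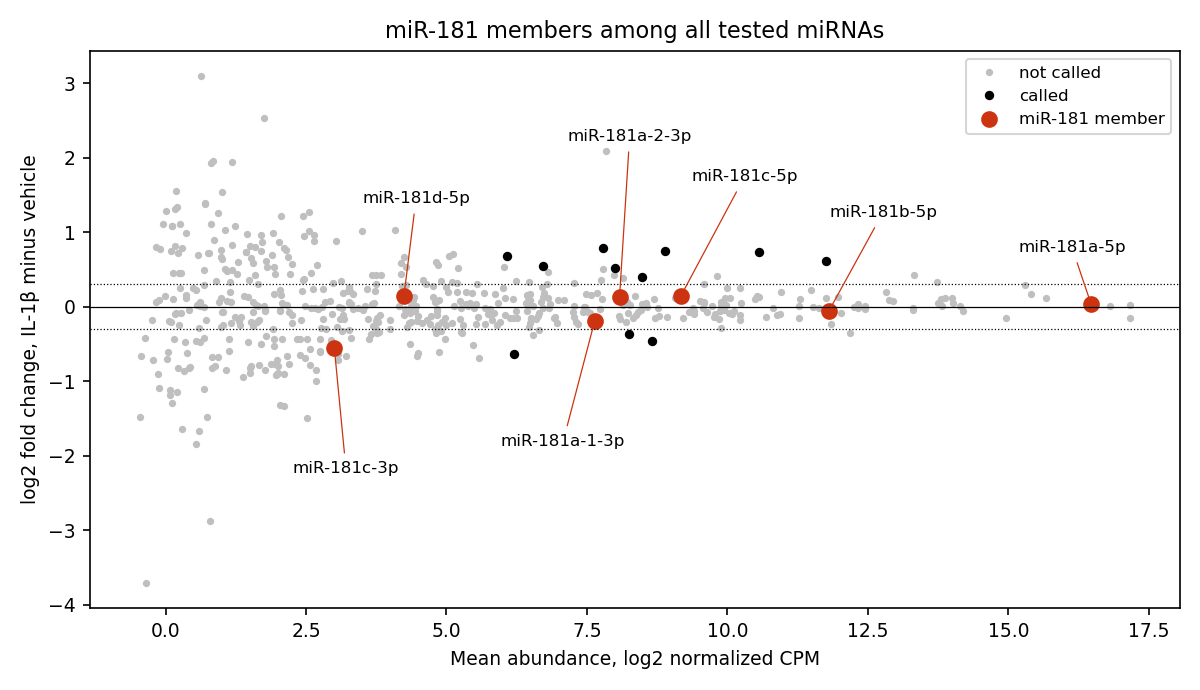
Log2 fold change (IL-1β minus vehicle) against mean abundance (log2 normalized CPM) of the 564 tested miRNAs, with the 7 tested miR-181 members in red, the 11 called miRNAs in black and dotted lines at 0.3 in either direction. The red points lie between -0.56 and 0.15, and none coincides with a called miRNA.

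To place the flat profile of the main guide strands, the other miRNAs averaging 50 counts or more per library were ranked by the root-mean-square difference of their log2 normalized CPM over the 8 libraries, each centered on its own mean. The 5 closest to miR-181a-5p were miR-92a-3p, miR-127-3p, let-7a-5p, miR-151-3p and let-7c-5p, at differences of 0.0411 to 0.0594 against a median of 0.165 over the miRNAs compared. miR-181b-5p lay farther away, at 0.0903, and miR-181c-5p at 0.0883. The 5 closest to miR-181b-5p were miR-24-3p, miR-182-5p, miR-411-5p, miR-409-3p and miR-127-3p, at 0.0451 to 0.0696 against a median of 0.181. Both guide strands thus had at least 5 other miRNAs nearer to them by this measure, which includes counting error, than any tested relative of at least 50 counts. With 195 miRNAs compared and few relatives among them, this does not show that relatives were unlike. Every such relative lay below the medians, at 0.0883 to 0.139 from miR-181a-5p and 0.0903 to 0.129 from miR-181b-5p.

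As the setting of these values, a list of 30 miRNAs that have been linked to cartilage or osteoarthritis was examined in the same fit. Of its 27 tested members, 2 (7.41%) were called, beside 1.95% of all miRNAs tested. Both were higher with IL-1β, namely miR-21a-5p (log2 fold change 0.75, SE 0.105) and miR-210-5p (0.74, SE 0.0859), with edgeR adjusted p-values of 3.58e-05 and 5.03e-06. The former is widely induced in inflamed tissue, and the hairpin of the latter is a known target of the hypoxia response. The median log2 fold change of the 27 was -0.0077, beside 0.0063 for all miRNAs tested. Within the list the largest log2 fold change was that of miR-146a-5p, a miRNA known to be induced by inflammatory signals and named here after its values were seen. It was at 79.5, 98.1, 91.8 and 74.8 normalized CPM with vehicle and at 203, 201, 269 and 821 with IL-1β, replicates 1 to 4. The groups did not overlap, as for 7.62% of all miRNAs tested, and IL-1β replicate 4 lay far above the other 3. Its change of 2.09 on the log2 scale (SE 0.562) was not called, at an adjusted p of 0.184 in edgeR. Without IL-1β replicate 4 the change was 1.33 (SE 0.125), which was called, at an adjusted p of 1.02e-08 in edgeR. The list was chosen with results of these data known.

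The labelled cell type was checked against marker miRNAs. The 4 chondrocyte markers, the arms of miR-140 and miR-455, were all detected. They took 15.6% to 16.8% of counts with vehicle and 12.4% to 15.3% with IL-1β, mostly as miR-140-3p (1193044 counts over the 8 libraries). The ranges did not overlap, as for 7.62% of single miRNAs tested. None of the 4 was called, and their log2 fold changes ran from -0.35 to -0.15. The adjusted p of miR-455-3p was 0.0691 in edgeR. The part of these markers in the miR-181 values was not tested. Of 6 haematopoietic markers, which matter here since lymphocytes are rich in miR-181a, 4 were at 0 in every library, among them miR-142a-3p, miR-223-3p and miR-451a. The haematopoietic list took 0.00441% to 0.00638% of counts with vehicle and 0.00260% to 0.00471% with IL-1β, and 370 of its counts were of miR-150-5p. Endothelial markers had at most 3 counts and epithelial markers at most 7 in any library, and the 5 muscle markers were at 0 throughout. In bulk samples such as these, fewer cells of a type and less RNA per cell cannot be told apart.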

How the data were processed

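miRNA-seq was performed by the authors on 8 libraries of cultured chondrocytes. They trimmed reads with cutadapt, aligned them to the mouse genome (mm10) with STAR (2.4.2a in the submitters' processing notes) and counted them per miRNA with featureCounts. The deposited values are counts: each column holds whole numbers and has its own total. The methods of the study describe a correction with RUVseq, which can also return whole numbers, so that the values alone do not show whether it was applied before deposit. They were tested as counts with no further correction. The methods of the study name a GENCODE release and a STAR version other than that of the processing notes, whereas the names in the table follow miRBase. The miRBase release, the use of strand and the handling of multi-mapping reads are not given in the sources used here. No molecular identifiers were described, so intervals and floors cover counting error only.

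The counts were tested with edgeR 4.0.16 in R 4.3.3 (TMM, robust quasi-likelihood fit, two-sided, group as the only term) over all miRNAs above 1 CPM in at least 4 of 8 libraries, with Benjamini-Hochberg adjustment over the 564 tested. Intervals are the log2 fold change plus or minus the t quantile times its SE. Ratios and shares were tested with exact two-sided permutation tests (70 arrangements) on log2 ratios with a pseudocount of 0.5 counts, or on percentages. Of 8 ratios listed, the 5 whose sides had a mean of at least 10 counts were tested. RefSeq held a mature sequence for 1675 of the 1966 names. The alternatives were other scalings, filters, DESeq2 1.42.0, a surrogate variable (sva 3.50.0), the replicate number as a block, other pseudocounts, and leaving out each library. The tests were checked on simulated data, for edgeR with a common dispersion and no library set apart. It recovered 41.8% of 1.5-fold and 62.1% of 2-fold changes over all miRNAs. At a mean of at least 50 counts it recovered 90.7% and 100%, and 4.38% of calls were false. Smaller changes were not simulated.

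Named miRNAs were the 9 members, others with the same seed, the 5 nearest in profile to miR-181a-5p and to miR-181b-5p, and the called members of the osteoarthritis list. Named outside this rule were miR-146a-5p, the marker miRNAs and miR-181d-3p. The members and lists were chosen with earlier results of these data known.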

Additional observations from a re-analysis of the deposited data

Results flagged for a closer look

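In 1 of 28 groups of 4 libraries examined, a single library lay far from the other 3, where chance alone gives about 1.4. This was miR-181d-5p in IL-1β replicate 4, where it reached 27.6 normalized CPM. The other 3 IL-1β libraries lay between 17.5 and 17.7, with the gap to its nearest neighbor taking 0.984 of the range. It rested on 22 counts in that library, beside 11, 21 and 12 counts in IL-1β replicates 1 to 3.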

How the results depend on the processing

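No member was called under any of the 15 alternatives in which it was tested, and the 2 shares and 5 ratios stayed short of the threshold after adjustment under theirs. The number of called miRNAs moved from 11 to 18 with 1 surrogate variable, to 19 with the replicate number as a block and to between 6 and 19 when single libraries were left out, the highest without IL-1β replicate 4 and the lowest without vehicle replicate 4. Leaving out vehicle replicate 2, or IL-1β replicate 3, gave 7. The cause was not tested. Same-numbered libraries did not consistently deviate together, with correlations of 0.17, -0.34, 0.10 and -0.18 over 195 miRNAs for replicates 1 to 4, so the numbers were not treated as pairs.

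The direction of 6 uncalled values changed when 1 library was left out. With each library left out in turn, the log2 fold change ranged from -0.0079 to 0.054 for miR-181a-5p, from -0.048 to 0.23 for miR-181d-5p and from -0.0034 to 0.21 for miR-181a-2-3p, negative only without IL-1β replicate 4. The difference of the 5p share ranged from -0.0754 to 0.223 percentage points, negative only without the same library, and was 0.264 with TMM-scaled totals against 0.0707 with library totals. The 3p share ranged from -0.00331 to 0.000470 percentage points and the log2 ratio of the miR-181a 3p arms to miR-181a-5p from -0.085 to 0.014, positive only without IL-1β replicate 1. The log2 ratio of miR-181a-1-3p to miR-181a-2-3p lay between -0.37 and -0.21. With 7 libraries, or within same-numbered pairs (smallest p 0.125), the permutation tests cannot reach 0.05. Depth limits miR-181d-5p, miR-181c-3p and the miR-181b 3p arms.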

Other observations

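miR-181d-3p, the remaining arm of the chromosome 8 pair, was outside the list of 9 members. It had 6 counts over the 8 libraries, with at most 2 in any of them, against 152 of miR-181d-5p.

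miR-181d-5p, which differs from miR-181b-5p by 1 base and by its length, was at 0.484% ± 0.0574 of the miR-181b-5p counts with vehicle and at 0.565% ± 0.0729 with IL-1β (SD, n = 4). This ratio was added after the data were seen and was not tested. The part of misread or misassigned reads in the counts of such close relatives was not tested.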
